A study of Mus musculus with 2 samples.

Results

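The miRNAs described here are the blood vessel and connective tissue miRNAs mmu-miR-126-3p, mmu-miR-126-5p, mmu-miR-143, mmu-miR-145, mmu-miR-199a-3p, mmu-miR-199a-5p and mmu-miR-214 (written without mmu- from here on), counted in small RNA libraries of whole mouse brain. They were chosen by name and not by a rule on their reads, although earlier results of these data were known. They are 7 of 523 known miRNA names that could be tied to a sequence. For each name a distinct sequence, here called a tag, was fixed through the study's own list of known miRNA counts, and every tag that shared its first 18 nucleotides (nt) was added to it, which gave the reads of a start. The 7 starts held 296 tags, with 28319 reads in the young library and 24357 in the old library. miR-199a-5p was not in the copy of that list used here and was found by its mature sequence, and the tag of miR-145 was chosen among tags of equal counts by its place in the precursor. The 3p product of the miR-199 precursors is the same sequence for miR-199a-3p and miR-199b and was counted once.

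The young library came from male C57BL/6J mice, an inbred strain, at 5 months of age, and the old library from male C57BL/6J mice at 24 to 25 months. Each library combined the cDNA of 2 mice before sequencing, so there was 1 library per age and no replicate error. The young library held 4523267 reads and the old library 6658732, and an undetermined base occurred in 4.57% of young and 1.07% of old reads. Every p-value below compares these 2 libraries and not the ages, and every 95% interval covers counting error only, since amplified reads are not independent molecules.

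miRNAs are cut from hairpin precursors and guide the silencing complex to mRNAs that pair with their seed, nucleotides 2 to 8. miR-126 lies in Egfl7, a gene of endothelial cells, and supports vessel growth and the integrity of the endothelium. miR-143 and miR-145 are made as a pair and promote the contractile state of vascular smooth muscle. The miR-199a-2 and miR-214 precursors share the noncoding transcript Dnm3os and are known from mesenchymal and connective tissue cells. In whole brain these miRNAs would come from a small fraction of the cells, and fewer cells of a type and less RNA per cell cannot be told apart in such samples.

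The sequences below are shown because the results turn on where their reads began and ended. Each is written 5′ to 3′ with the seed in capitals, and the 7 counted tags had 7 different seeds. They are given as read in the deposited tags, and that of miR-199a-5p as in RefSeq (GRCm38.p6), which held 4 of the 7 tags as mature sequences.
miR-126-3p: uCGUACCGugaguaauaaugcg
miR-126-3p, start 1 nt later: cGUACCGUgaguaauaaugcg
miR-126-5p: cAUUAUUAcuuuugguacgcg
miR-199a-3p: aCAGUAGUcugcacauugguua
miR-199a-3p, start 1 nt earlier: uACAGUAGucugcacauugguu
miR-199a-5p: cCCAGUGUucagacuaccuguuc
miR-214: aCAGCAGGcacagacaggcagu

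The miR-126 precursor is printed with its 5p product and then its 3p product in capitals, because most 3p reads began 1 nt inside the listed product. It lies at chr2:26446877-26446949 on the plus strand of mm9, inside Egfl7 on the same strand, where it overlaps an exon. No read matched its opposite strand.
Mir126: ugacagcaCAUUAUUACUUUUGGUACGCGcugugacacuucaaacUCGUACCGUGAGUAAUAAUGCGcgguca

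The Mir199a-2 precursor is shown in the same way, as the precursor next to miR-214. It lies at chr1:164147945-164148054 on the plus strand of mm9 and overlaps an exon of Dnm3os, opposite to an intron of Dnm3.
Mir199a-2: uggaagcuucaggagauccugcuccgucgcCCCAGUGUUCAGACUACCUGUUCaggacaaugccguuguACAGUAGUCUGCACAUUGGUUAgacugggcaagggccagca

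The Mir214 precursor, at chr1:164153499-164153608, began 5444 bases after the end of Mir199a-2 and also overlapped an exon of Dnm3os. Mir199a-1, at chr9:21300939-21301008 on the minus strand, lay opposite to an intron of Dnm2, and Mir199b, found by its sequence at chr2:32173980-32174089, lay opposite to an intron of Dnm1. All 3 dynamin genes therefore carried a miR-199 precursor on their opposite strand. Mir143 and Mir145 lay on the same strand of chromosome 18 with 1292 bases between them, and the annotation placed no gene around either.

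The 7 miRNAs were read at very different levels. miR-143 was by far the most read of them, with 26653 young and 21537 old reads, or 5892 and 3234 reads per 1000000 reads of the library (RPM). Of all reads of the 7 miRNAs it held 94.1% in the young and 88.4% in the old library, and ranked 21 of 508 known miRNA starts in the young and 25 in the old library. miR-199a-3p followed with 1305 young and 2371 old reads, or 289 and 356 RPM. In both libraries miR-143 was read more than miR-199a-3p, by 20.4 times in the young and 9.08 times in the old library.

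The miR-126 strands were read much less. miR-126-5p had 239 young and 310 old reads, or 52.8 and 46.6 RPM. miR-126-3p had 61 young and 105 old reads, or 13.5 and 15.8 RPM. At the listed starts the 5p strand exceeded the 3p strand, by 3.92 times in the young (adjusted p = 9.34e-26, exact binomial test) and 2.95 times in the old library (adjusted p = 2.81e-24). The direction turned when all starts within 2 nt of the listed ones were counted, since most 3p reads began 1 nt later. The 3p strand then had 271 young and 449 old reads against 243 and 313 of the 5p strand, a difference that passed the test in the old library (1.43 times, adjusted p = 1.26e-06, exact binomial test) and not in the young one (1.12 times, adjusted p = 0.234).

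miR-145 had 54 young and 29 old reads, or 11.9 and 4.36 RPM, although it lies beside miR-143. At the listed starts it did not differ detectably from miR-126-3p in the young library (adjusted p = 0.691, exact binomial test), and in the old library miR-126-3p was 3.62 times as read (adjusted p = 3.93e-11). With all starts within 2 nt counted, miR-126-3p exceeded miR-145 in both libraries, by 4.84 times in the young (271 against 56 reads, adjusted p = 1.14e-34, exact binomial test) and 15.5 times in the old (449 against 29 reads, adjusted p = 2.63e-97). miR-214 had 4 young and 3 old reads, and miR-199a-5p had 3 young and 2 old reads. Both were below 1 RPM in each library, and their levels did not differ detectably in either (adjusted p = 1, exact binomial test). Levels of different miRNAs are compared here as reads and not as molecules.

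**Figure D1:**
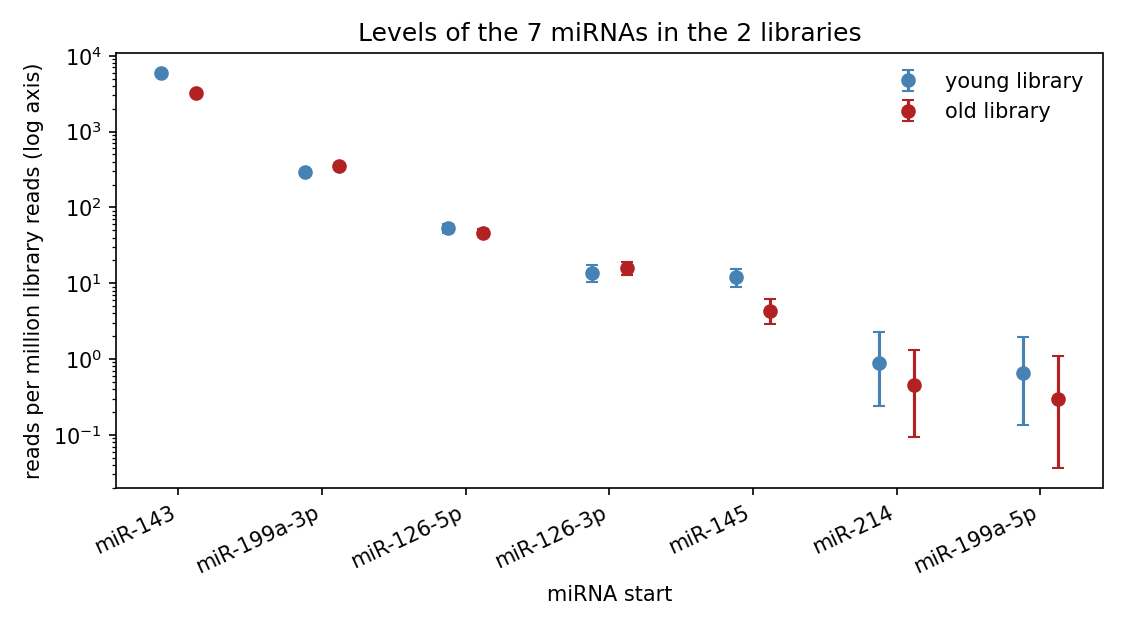
RPM (log axis) of the 7 miRNA starts in the young (blue) and old (red) library, with exact 95% Poisson intervals. miR-143 stood at 5892 RPM in the young library, while miR-214 and miR-199a-5p stayed below 1 RPM in both libraries.

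The comparison of the old with the young library asked which of these miRNAs differed between the 2 libraries. Reads were divided by the library totals, and the ratio was tested by the random sampling model of DEGseq (MARS) with Benjamini-Hochberg adjustment over all 508 known starts. miR-143 and miR-145 passed the test as lower in the old library, miR-199a-3p passed as higher, and the other 4 did not pass. Over all known starts the same test called 46.7% lower and 5.51% higher, so 2 of 7 lower is not a high share and 1 of 7 higher rests on a single miRNA.

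miR-143 fell from 5892 to 3234 RPM, a log2 ratio of old to young of -0.87 (95% interval -0.89 to -0.84), and its p was too small for the computer's number format. miR-145 fell from 11.9 to 4.36 RPM, a log2 ratio of -1.45 (-2.16 to -0.78), with an adjusted MARS p of 1.81e-05. The intervals of both miRNAs of the pair lay below 0, and the difference between their ratios, 0.59 (-0.06 to 1.24), could not be told from 0 (adjusted p = 0.0971, Fisher's exact test over 10 pairs). With an edgeR exact test that assumed a biological coefficient of variation of 0.2, a spread between mice that these libraries cannot show, the adjusted p was 0.155 for miR-143 and 0.0577 for miR-145.

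miR-199a-3p rose from 289 to 356 RPM, a log2 ratio of 0.30 (0.21 to 0.40) with an adjusted MARS p of 1.06e-09. The call was lost in an edgeR exact test with an assumed coefficient of variation of 0.1 (adjusted p = 0.292). Over the known starts the log2 ratio fell by 0.38 for each 10 percentage points of GC content, and the tag of miR-199a-3p held 40.9% GC against a mean of 48.9%. Corrected linearly for GC content, miR-199a-3p lay at 0.00181 and no longer passed (adjusted p = 0.983).

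miR-126-3p had a log2 ratio of 0.23 (-0.24 to 0.71, adjusted p = 0.463) and miR-126-5p one of -0.18 (-0.43 to 0.07, adjusted p = 0.222). Neither strand passed the test, and the interval of the difference between them, 0.41 (-0.11 to 0.92), held 0. After the correction for GC content that difference was 0.69 (0.17 to 1.20), and miR-126-5p, with a tag of 38.1% GC, passed as lower at -0.59 (adjusted p = 2.77e-06, MARS). miR-214 had a log2 ratio of -0.97 (-3.74 to 1.59) and miR-199a-5p one of -1.14 (-4.72 to 1.98). A change of 2 fold was not detectable at this depth in either.

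The ratios of the miRNAs were also compared with each other. The ratio of miR-199a-3p exceeded that of miR-143 by 1.17 on the log2 scale (difference of miR-143 minus miR-199a-3p -1.17, -1.27 to -1.07, adjusted p = 1.41e-118, Fisher's exact test). It also exceeded that of miR-145 (-1.76, -2.42 to -1.10, adjusted p = 2.86e-07) and that of miR-126-5p (-0.49, -0.75 to -0.22, adjusted p = 0.000500), but the difference from miR-126-3p, -0.08 (-0.54 to 0.39), held 0. Both miR-126 strands had higher ratios than miR-143, by 1.09 (0.64 to 1.55) for the 3p and 0.68 (0.44 to 0.93) for the 5p strand. These differences do not depend on the library totals. After the linear correction for GC content the difference of miR-126-5p from miR-143 was 0.32 (0.08 to 0.57), and the other differences named in this comparison kept their direction or, for miR-126-3p against miR-199a-3p, an interval that held 0.

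The level at which no change is set does depend on them. The median log2 ratio of the 369 known starts with at least 10 reads in a library was -0.67, and 81.3% of those starts had a ratio below 0. Relative to this median, miR-143 lay at -0.19, miR-145 at -0.78, miR-126-5p at 0.49, miR-126-3p at 0.90 and miR-199a-3p at 0.98. Of these 369 starts, 31.7% were at least 2-fold lower and 2.17% at least 2-fold higher in the old library. Among the 5 miRNAs with that many reads, miR-145 was past 2-fold lower and 0 were past 2-fold higher.

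**Figure D2:**
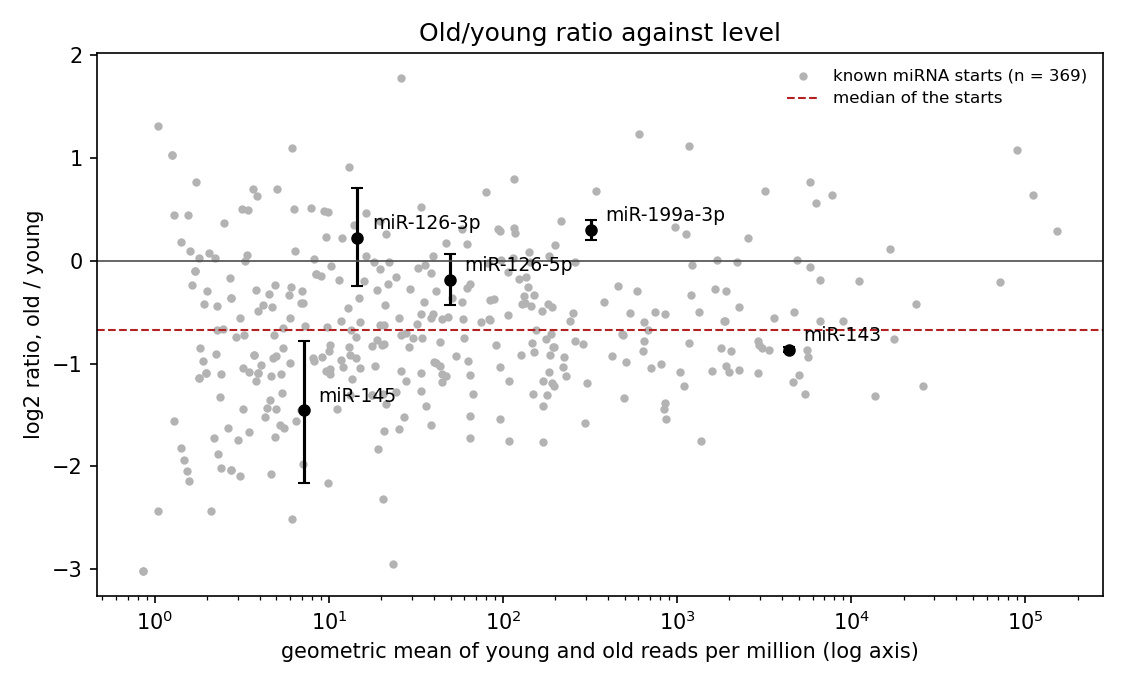
Log2 ratio of old to young RPM against the geometric mean of both levels (log axis) for 369 known miRNA starts (grey) and the 5 vascular miRNAs with at least 10 reads (black, exact 95% intervals of counting). The dashed line is the median of the starts at -0.67, with miR-145 and miR-143 below it and the other 3 above it.

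Another depth shifts all ratios alike, so the order of the 5 miRNAs stayed and the zero line moved. With TMM factors, which set the bulk of starts to no change, miR-126-5p turned from -0.18 to 0.56 (adjusted p = 1.91e-05, MARS), miR-126-3p passed as higher at 0.97 (adjusted p = 6.96e-05) and miR-143 lay at -0.12. miR-145 kept its direction at -0.71 but no longer passed (adjusted p = 0.0670). miR-199a-3p was higher and called under each of the other depths tried, with 1.05 under TMM.

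**Figure D3:**
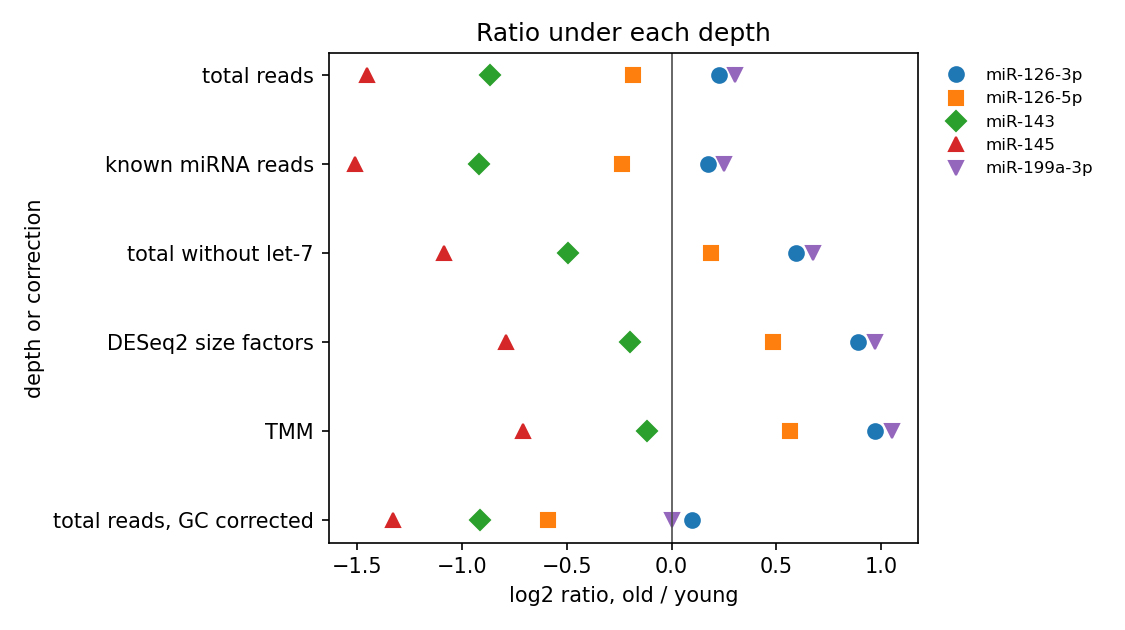
Log2 ratio of old to young of the 5 vascular miRNAs with at least 10 reads (horizontal axis) under 5 depths and a correction for GC content (rows). Under TMM all values lie 0.75 higher than under total reads, and under the GC correction miR-199a-3p moved to 0.00181.

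The 5′ end of miR-126-3p was displaced from its listed start. Of the reads that began within 2 nt of it, 61 of 271 in the young library (22.5%, 95% exact interval 17.7 to 28.0) and 105 of 449 in the old library (23.4%, 19.5 to 27.6) began at the listed nucleotide. Most began 1 nt later, 196 young and 313 old reads, or 72.3% and 69.7%. In these reads the seed was GUACCGU and not CGUACCG, as in the sequences shown above. The shares did not differ detectably between the libraries (adjusted p = 0.855, Fisher's exact test).

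Few other known miRNAs showed such a displacement. Of 307 known starts with at least 50 reads at the listed start and its direct neighbours, 8, miR-126-3p among them, had more reads 1 nt later than at the listed start, or 2.61%. Another 8 had more reads 1 nt earlier, so that 16, or 5.21%, were displaced by 1 nt in either direction, and the median share of the listed start was 98.2%. The reads of miR-126-3p that began 1 nt later gave a log2 ratio of 0.12 (-0.14 to 0.38), so that they too did not differ detectably between the libraries. Its 5p strand began almost only at its listed nucleotide, in 98.4% of young and 99.0% of old reads. With all starts of the 3p strand included, tags that matched the miR-126 precursor perfectly gave 130 young and 172 old reads of the 5p arm against 139 and 237 of the 3p arm.

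miR-199a-3p had a smaller second start, 1 nt earlier, with 317 young and 404 old reads. The listed start held 78.2% (76.2 to 80.2) of the young and 82.6% (81.1 to 84.0) of the old ones within 2 nt (adjusted p = 0.00178, Fisher's exact test), and the earlier start held 19.0% and 14.1%. The log2 ratio of the earlier start was -0.21 (-0.42 to 0.01), against 0.30 for the listed one. With the starts within 2 nt added, miR-199a-3p had a log2 ratio of 0.23. miR-143 began at its listed nucleotide in 99.4% of young and 99.2% of old reads, and miR-145 in 54 of 56 young and 29 of 29 old reads.

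**Figure D4:**
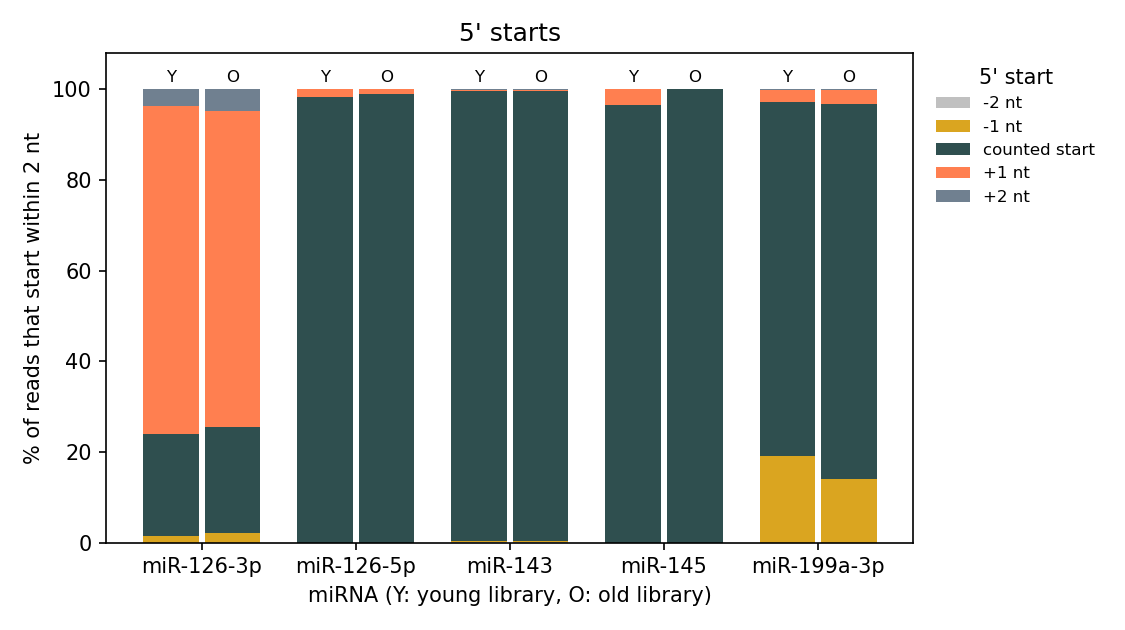
Share (percent) of the reads that began within 2 nt of the listed start, by 5′ start, for 5 miRNAs in the young (Y) and old (O) library. The start 1 nt later (orange) held 72.3% and 69.7% of the miR-126-3p reads, and the start 1 nt earlier (yellow) 19.0% and 14.1% of those of miR-199a-3p.

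Both strands of a hairpin can be kept, and their shares were compared between the libraries. The 3p strand of miR-145, which is not the listed product, had 38 young and 83 old reads against 54 and 29 of the listed 5p strand. Its share of both strands was 41.3% (31.1 to 52.1) in the young and 74.1% (65.0 to 81.9) in the old library (adjusted p = 1.12e-05, Fisher's exact test over 5 hairpins). The intervals of the 2 libraries did not overlap. Taken over every perfect match in either arm, the 3p share was 50.6% in the young and 73.2% in the old library (p = 0.00204, Fisher's exact test).

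Read by strand, the 5p strand of miR-145 fell while its 3p strand had a log2 ratio of 0.57 (-0.00 to 1.16, p = 0.0513, exact binomial test). The most read 3p tag held 33.3% GC and the 5p tag 52.2%. The log2 odds ratio of the strands was 2.02 (1.17 to 2.88), and 1.31 (0.45 to 2.16) after the linear correction for GC content. Of 84 hairpins with at least 20 reads of each listed strand, 44.0% passed the same test of a shift in strand shares. In either direction, 2 had an uncorrected log2 odds ratio at least as large as the uncorrected 2.02. No such count was made for the smaller corrected value of 1.31 or for every perfect match in either arm.

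In the other hairpins the strand shares did not differ detectably between the libraries before a correction for GC content. The star strand of miR-143 had 160 young and 145 old reads, 0.597% (0.508 to 0.696) and 0.669% (0.565 to 0.786) of both strands (adjusted p = 0.408, Fisher's exact test), and its log2 ratio was -0.70 (-1.03 to -0.37). The miR-126 5p strand held 79.7% (74.7 to 84.1) of the young and 74.7% (70.2 to 78.8) of the old ones at the listed starts (adjusted p = 0.303). After the same linear correction for GC content, the log2 odds ratio of the miR-143 star strand moved from 0.17 (-0.16 to 0.49) to 0.71 (0.38 to 1.03) and that of miR-126 3p against 5p from 0.41 (-0.11 to 0.92) to 0.69 (0.17 to 1.20), both with intervals above 0.

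The miR-199 precursors were read almost only from the 3p arm. Their 5p strands had 6 young and 4 old reads, or 0.458% and 0.168% of both strands (adjusted p = 0.303, Fisher's exact test). Of these, 3 young and 2 old reads came from miR-199a-5p and as many from miR-199b-5p, which differs by C10U, counted from 1 at the 5′ end of miR-199a-5p. These 5p reads were the only ones that could separate Mir199b from the Mir199a precursors, and they were too few to divide the 3p reads among the 3 precursors.

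miR-214 was nearly absent beside miR-199a-3p, although its precursor shares a transcript with Mir199a-2. Of its 4 young and 3 old reads, 2 young reads ended at the listed 3′ end without an added base. The listed tag also matched chr4:99388679-99388700 (minus strand) and chr9:107478594-107478615 (plus strand) of mm9, outside the Mir214 precursor. The other reads carried further bases, which were compared with the Mir214 precursor only. Whether reads came from the other places was not tested. The 5p strand of miR-214 was read 0 times in either library, and a count of 0 allows up to 3 reads in each, while the opposite strand of the precursor was read 2 times in each.

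The 3′ ends were not used to choose tags beyond the first 18 nt. The most read tag of miR-199a-3p was 21 nt long and ended 1 nt before the listed end, with 695 young and 1090 old reads, and the listed tag of 22 nt had 382 and 812. The 21-nt tag made up 53.3% (50.5 to 56.0) of the young and 46.0% (44.0 to 48.0) of the old ones (adjusted p = 6.42e-05, Fisher's exact test). The listed tag made up 29.3% and 34.2% (adjusted p = 0.00561), so the balance between both ends lay further towards the longer form in the old library.

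For miR-143 the listed 21-nt tag was the most read, with 10197 young and 7502 old reads, and its share was 38.3% (37.7 to 38.8) in the young and 34.8% (34.2 to 35.5) in the old library (adjusted p = 4.39e-14, Fisher's exact test). The mean length of its reads was 20.8 nt in both libraries. The most read end of miR-126-3p, miR-126-5p and miR-145 did not differ detectably between the libraries (adjusted p = 1 for each, Fisher's exact test).

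Reads can also carry 3′ bases that the genome does not encode, added by terminal transferases. A tail was counted here from the first base after nucleotide 18 that differed from the precursor's genome sequence, so that a sequencing error near the end is included. The 3′ adapter begins with T, and a left-over adapter base cannot be told apart from an added U.

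The highest tail shares were those of the miR-126 strands, with intervals that overlapped those of miR-145. Tails occurred in 46.0% (39.6 to 52.6) of the young and 44.8% (39.2 to 50.6) of the old ones on miR-126-5p, and in 39.3% (27.1 to 52.7) and 41.0% (31.5 to 51.0) on miR-126-3p. The share was 26.6% and 28.2% for miR-143, 27.8% and 24.1% for miR-145, and 13.0% and 15.7% for miR-199a-3p. Only that of miR-143 passed the test between the libraries (adjusted p = 0.000600, Fisher's exact test), with a difference of under 2 percentage points. miR-143 also had by far the most reads, and the larger difference of miR-199a-3p did not pass (adjusted p = 0.0632, Fisher's exact test). Tails and 3′ ends were compared between the libraries for these miRNAs only, so no share over all known starts stands beside these calls. Each adjusted p was taken over these 5 miRNAs, apart for each 3′ end and kind of tail. An adjustment over all of these tests together was not made.

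The kinds of tail were compared as well, with p adjusted apart for each kind. On miR-126-5p, tails of A alone occurred in 71 of 239 young reads (29.7%, 24.0 to 35.9) and in 61 of 310 old reads (19.7%, 15.4 to 24.5), a fall that passed the test (adjusted p = 0.0217, Fisher's exact test). Tails of U alone occurred in 13.8% of young and 21.6% of old reads, which did not pass (adjusted p = 0.0972). On miR-126-3p, A tails occurred in 29.5% of young and 30.5% of old reads.

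On miR-143, U tails were more frequent than A tails, at 15.1% against 7.67% in the young and 14.6% against 8.36% in the old library. A tails were more frequent in the old library on miR-143 (adjusted p = 0.0217, Fisher's exact test) and on miR-199a-3p, where they rose from 2.53% to 4.01% (adjusted p = 0.0313). The change of A tails on miR-126-5p ran opposite to that on miR-143 and miR-199a-3p. Other tails were of mixed bases or held C, G or an undetermined base. On miR-143 they occurred in 3.88% of young and 5.22% of old reads (adjusted p = 8.67e-12, Fisher's exact test).

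**Figure D5:**
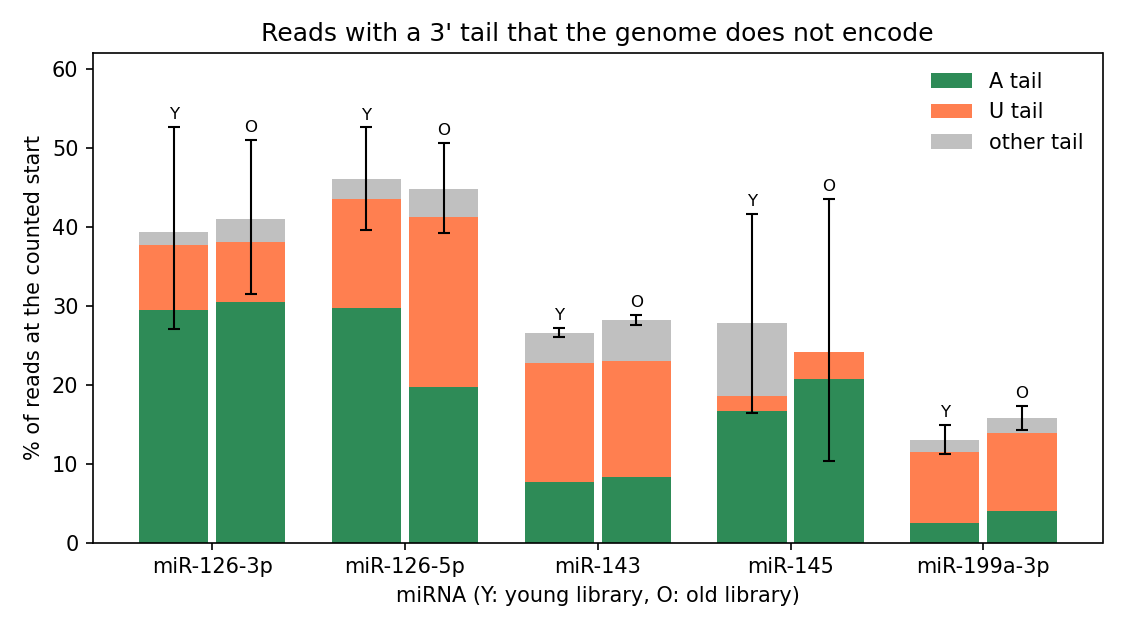
Share (percent) of the reads of each start that carried a 3′ tail, by kind of tail, in the young (Y) and old (O) library, with exact 95% intervals of all tails together. Tails reached 46.0% and 44.8% on miR-126-5p, where the A part (green) was 29.7% in the young and 19.7% in the old library.

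Other miRNAs known from vessels and connective tissue were read in the same libraries. Their lists came from general knowledge, and which cells of whole brain gave these reads was not tested. Of 12 starts of the endothelial list, which holds miR-221, miR-24, miR-10b and others, 7 passed the test as lower, 3 as higher and 2 did not pass, with a median log2 ratio of -0.29 against -0.67 over the 369 starts with at least 10 reads. Over all 508 known starts 46.7% passed as lower and 5.51% as higher, and these shares are set beside the counts of every list here. They include starts with fewer than 10 reads, which the list counts leave out. The measures are therefore unlike, and a list count above these shares is not read as high. The 3 starts of the endothelial list that passed as higher were miR-10b, at 63 young and 319 old reads (log2 ratio 1.78), miR-31, at 393 and 708 (0.29), and miR-130a, at 850 and 1390 (0.15). At least 2-fold lower were 3 starts, miR-296-5p (-2.03), miR-221 (-1.09) and miR-92a (-1.04), and 1 was at least 2-fold higher. Star strands were outside this list. That of miR-221 passed as higher, with 4626 young and 8167 old reads (log2 ratio 0.26, adjusted p = 1.25e-23, MARS), and that of miR-92a-1 had only 3 and 4 reads. Of 6 starts with enough reads of the smooth muscle, pericyte and connective tissue list, 5 passed as lower (46.7% of all starts), 0 as higher (5.51% of all starts) and 1 did not pass, with a median of -0.24. The one that did not pass was miR-21, at 10015 young and 14622 old reads (log2 ratio -0.01).

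Markers of other tissues moved as follows, and their part in the results above was not tested. All 8 starts of the brain list, which includes the neuronal miR-124 and the oligodendrocyte miR-219, passed as lower, against 46.7% of all known starts. Their median log2 ratio was -0.73 against -0.67 over the 369 starts, and their summed level was 86465 young and 45642 old RPM. Star strands of these miRNAs were outside the list. That of miR-9 passed as higher, with 1786 young and 6166 old reads (log2 ratio 1.23, adjusted p = 4.02e-268, MARS). Those of miR-124 (-1.11), miR-128-1 (-1.625) and miR-219-3p (-2.16) passed as lower, and that of miR-138-1 (-0.10) did not pass. Of 4 starts with enough reads of the blood and immune list, 3 passed as lower (46.7% of all starts) and 1 as higher (5.51%). The start that passed as higher was miR-142-5p, with 127 young and 268 old reads (log2 ratio 0.52). Lower were the red cell miRNAs miR-451 (-0.92) and miR-144 (-0.75) and the start shared by miR-486 and miR-3107 (-0.93). The summed level of the list was 635 young and 363 old RPM. It came mostly from miR-451, with 1155 young and 901 old reads, and the miR-486 start, with 1405 and 1084. Of the striated muscle list, miR-1 passed as higher (5.51% of all starts), with 28147 young and 64402 old reads (log2 ratio 0.64). In that list 2 of 3 starts did not pass, and its summed level was 7493 young and 10908 old RPM. The liver miRNA miR-122 had 885 young and 818 old reads (log2 ratio -0.67).

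The known starts nearest to each miRNA in its young and old level were found by the distance of log2 RPM over the 2 libraries. They were miR-216b and miR-350 for miR-126-3p, miR-380-5p and miR-22* for miR-126-5p, miR-598 and miR-376a for miR-143, miR-412-5p and miR-874 for miR-145, and miR-16 and miR-137 for miR-199a-3p. The closest was miR-412-5p, with 52 young and 28 old reads beside 54 and 29 of miR-145, at a distance of 0.07. None of these neighbours was another vascular miRNA of the 7.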

How the data were processed

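Brain small RNAs of each age formed 1 library. The authors removed the 3′ adapter, aligned reads to mm9 with SOAP (version not given in the sources used here), merged equal sequences, and the deposited value is the raw count of each. The files hold reads that aligned, so tails too long to align were not analysed here.

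Known names were tied to tags through the study's count list (199 by a single tag, 285 by mature sequence, 38 by precursor, and 36 not tied) and 1 mature sequence, giving 508 distinct starts. Places came from NCBIM37 (mm9) and GENCODE vM1. Ratios used total reads, with 0 set to 0.5. MARS p-values followed the DEGseq formula, two-sided. Intervals of ratios and shares are exact (Clopper-Pearson), and those of differences between log2 ratios are Woolf intervals. edgeR's quasi-likelihood test has no residual degrees of freedom here. The members and lists were chosen with earlier results of these data known. Named miRNAs are the members, their other strands and the 2 nearest starts of members with at least 50 reads. List members on which a count or sum turns, and some star strands of list members, are also named, chosen after their values were seen. Alternatives were other depths, tag rules, tests and a GC correction. The analysis of 5′ starts, levels over all starts within 2 nt, the strand shares of all hairpins and the GC correction of strand shares and of differences between miRNAs were added after seeing the data. The statistics were tested on simulated counts that held Poisson counting error only. That simulation cannot show how the tests behave with a spread between mice. Software was Python 3.11.15, numpy 2.4.6, scipy 1.17.1, R 4.3.3, edgeR 4.0.16 and DESeq2 1.42.0.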

Additional observations from a re-analysis of the deposited data

Results flagged for a closer look

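Some reads outside the listed products were flagged, as they stood above the 3 reads that a count of 0 allows. Such starts were looked at because they held many reads, so standing above 3 reads is not a test. They were the 313 old reads of miR-126-3p that began 1 nt after the listed start and the 22 that began 2 nt after it, the 404 old reads of miR-199a-3p that began 1 nt before the listed start, and the 83 old reads of the 3p strand of miR-145. There was no control library to set them against. The young library held 196, 10, 317 and 38 such reads. Starts not flagged also stood above 3 reads, among them 94 old reads 1 nt after the listed start of miR-199a-3p. miR-143 had 70 old reads 1 nt before and 70 old reads 1 nt after its listed start.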

How the results depend on the processing

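The depth moved the calls of both miR-126 strands and of miR-145, and an assumed coefficient of variation of 0.2 ended all 3 calls made with total reads. miR-126-5p reversed to 0.19 with total reads without let-7, to 0.48 with DESeq2 size factors and to 0.56 with TMM, and passed the test as lower at -0.59 after the GC correction. miR-126-3p passed as higher under the same depths, at 0.60, 0.89 and 0.97. miR-145 no longer passed under TMM (-0.71), and miR-199a-3p no longer passed after the GC correction (0.00181). With an unchanged ratio, miR-143 (-0.87) and miR-145 (-1.45) lost their calls at an assumed coefficient of variation of 0.2 and 0.4, and miR-199a-3p (0.30) at 0.1, 0.2 and 0.4. The number of known starts past 2-fold, 125, was 73 without let-7, 68 with TMM (23 lower, 45 higher), 62 with DESeq2 size factors (27 lower, 35 higher), 197 with no minimum of reads and 80 with a minimum of 50. Among perfect matches alone, the share of the most read 3′ end of miR-126-5p changed by -0.73 and not 0.48 percentage points, neither of which passed. After the GC correction, added after seeing the data, the log2 odds of the star strand of miR-143 (0.17) became 0.71 and those of miR-126 3p against 5p (0.41) became 0.69, with intervals above 0. The causes were not tested. The other 93 values kept their direction and their side of the threshold or, for counts, stayed within 1.5 times. The depth limits miR-214 and miR-199a-5p, whose few reads cannot show a change. No paired analysis was possible because each age has 1 library. For the same reason no replicate could be left out.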
